A study of Homo sapiens with 16 samples.

Results

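The genes HDAC1 to HDAC10, which encode the zinc-dependent histone deacetylases of class I and class II, were followed across RNA-seq libraries of lymphoma cell lines. The members were chosen by their symbols in the count tables, and all 10 were found among 62714 listed genes. The data are 16 libraries of ribosomal RNA depleted RNA. They come from 4 human B-cell lymphoma lines, all of them established, in which guides cut either CREBBP or the AAVS safe-harbour site that serves as control. All cells carried a Cas9 lentivirus with 4 guides to its target, and they were kept as pools, not as clones. The labels give the genotypes as CREBBP -/- and AAVS -/-, and each pool gave 1 library at baseline and 1 library after 4 h with IL4 at 10 ng/ml. There are thus 4 groups (AAVS or CREBBP pools, each at baseline or with IL4) of 4 libraries, 1 per line. SU-DHL4 is called line 1 and DOHH2 line 4. Of lines 2 and 3, the labels are in conflict over which is OCI-LY7 and which SU-DHL10.

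Histone deacetylases take acetyl groups off lysines, and so act against acetyltransferases such as CREBBP. The class I enzymes HDAC1, HDAC2 and HDAC3 work inside corepressor complexes (SIN3, NuRD, CoREST and MiDAC for HDAC1 and HDAC2, NCoR for HDAC3), and in germinal center B cells BCL6 recruits such complexes to genes that CREBBP keeps acetylated, among them MHC class II genes. The class IIa enzymes HDAC4, HDAC5, HDAC7 and HDAC9 shuttle between nucleus and cytoplasm, bind MEF2 factors and are held in the cytoplasm by 14-3-3 proteins after phosphorylation. HDAC6 and HDAC10 form class IIb and act largely on proteins and polyamines in the cytoplasm.

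The CREBBP transcript was examined first. CREBBP was at 190.5 to 378.8 CPM (counts scaled to a common library total) in the AAVS pools and at 69.9 to 278.0 CPM in the CREBBP pools, and the ranges overlapped. It was lower in the CREBBP pool of 2 of 4 lines at baseline and of 4 of 4 lines with IL4. The fitted log2 difference between CREBBP and AAVS pools was -0.11 (edgeR's quasi-likelihood test, adjusted p = 0.851) at baseline and -0.51 (adjusted p = 0.218) with IL4. The groups follow the genotypes of the labels, and the study checked the targeted pools for CREBBP protein by immunoblot, which was not analysed here. All 9 B-cell markers were at 1 CPM or more in every library. Library totals ran from 19649735 to 61981976 counts (median 44724334). The small RNAs 7SK and 7SL took 4.41% to 18.1% of the counts. The highest share was in the CREBBP IL4 library of line 2, the next, at 13.3%, in the CREBBP baseline library of line 3, and the smallest total, with a share of 10.7%, was in the AAVS IL4 library of line 3. Markers of other cell types were also counted, and the source of these transcripts was not tested. In the AAVS IL4 libraries T-cell markers summed to 43.5 to 243 CPM, against 10.8 to 49.1 CPM in the other 12 libraries. These ranges overlapped, although within each line the AAVS IL4 library had the highest sum. Of the 13 T-cell markers, 7 to 13 were at 1 CPM or more in this group, and 2 to 4 in the other 12 libraries. CD2 was at 0 in all those 12 libraries but reached 0.566 to 7.68 CPM in this group. Other markers overlapped, with TRAC at 4.30 to 39.2 CPM in this group and at 0.484 to 37.3 CPM in the other 12. NK-cell markers summed to 5.30 to 32.8 CPM against 0.533 to 2.27 CPM, and myeloid markers to 14.8 to 31.5 CPM against 5.53 to 29.3 CPM, where the ranges overlapped. The widest gap was in IGHM, IGHD, CD44 and VIM, known from earlier results of these data, which summed to 694 to 3472 CPM in the AAVS IL4 libraries against 0.327 to 8.36 CPM in the other 12. These values move with the AAVS IL4 group, and their part in the differences described for that group was not tested.

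HDAC1 was the most abundant member. Counts were divided by the library total and by the length of the gene's merged exons, which gives CPM per kb, so that genes can be ranked. HDAC1 had a median of 85.4 CPM per kb and ranked first in 16 of 16 libraries, with 39.8% to 71.8% of the summed level of the 10 members. HDAC7 followed with a median of 16.4 CPM per kb, HDAC3 with 11.4, HDAC5 with 8.49, HDAC10 with 5.71 and HDAC2 with 4.36 CPM per kb. At the lower end, HDAC9 had a median of 2.61 CPM per kb, HDAC6 of 1.81, HDAC8 of 1.19 and HDAC4 of 0.989 CPM per kb.

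The gap between HDAC1 and HDAC7 held in 16 of 16 libraries, with a median log2 difference of 2.46 (SD 0.81). Below HDAC1 the neighbours in this order were not set apart by more than their spread in every library. HDAC7 was above HDAC3 in 10 of 16 libraries, HDAC3 above HDAC5 in 11, HDAC5 above HDAC10 in 13, HDAC10 above HDAC2 in 11 and HDAC2 above HDAC9 in 12. HDAC9 was above HDAC6 in 11 of 16 libraries and HDAC6 above HDAC8 in 14, while HDAC8 and HDAC4 took the higher place in 8 libraries each. With the longest transcript in place of the merged exons, HDAC3 moved ahead of HDAC7 and HDAC8 to the seventh place, with HDAC9 in the ninth. HDAC11, the only class IV enzyme, was near the floor of these libraries with 0 to 36 counts, or 0 to 1.02 CPM.

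**Figure D1:**
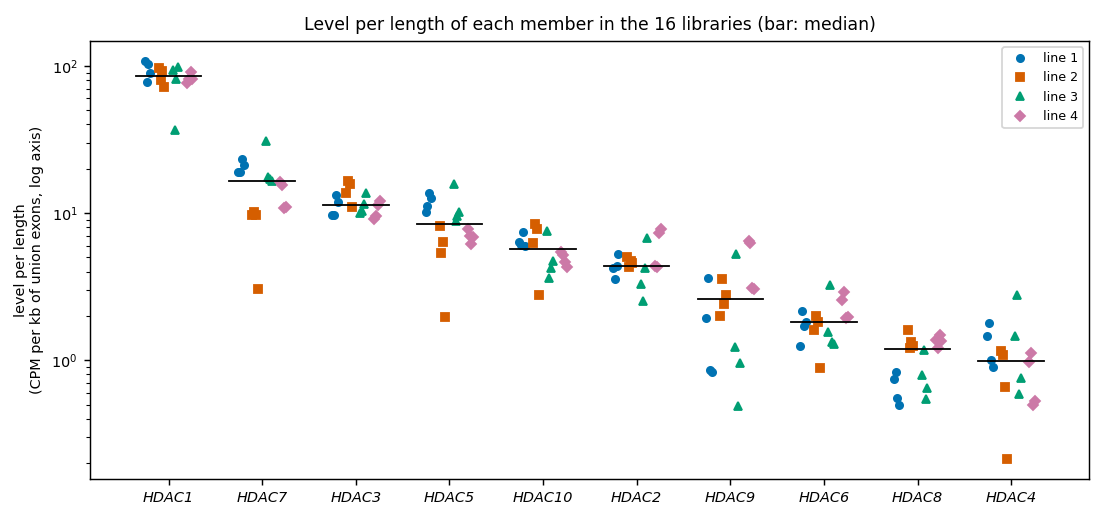
Level of each member in the 16 libraries as CPM per kb of merged exons, on a log axis, with members ordered by their median (black bar) and symbols for the 4 lines. HDAC1 lies above every other member in each library, and the remaining members form a gradual slope from HDAC7 at a median of 16.4 to HDAC4 at 0.989 CPM per kb.

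The class I enzymes together held a median of 75.1% of the summed level per length (range 54.98% to 88.4%). The class IIa enzymes held 20.5% (7.96% to 37.5%) and the class IIb enzymes 5.39% (3.65% to 7.92%). The lowest class IIa share was in the CREBBP IL4 library of line 2, with 18.1% of its counts from 7SK and 7SL, and the highest in the AAVS IL4 library of line 3, with 10.7%. In the CREBBP baseline library of line 3, with 13.3% of its counts from these small RNAs, the class IIa share was 21.1%. The part of the small RNA share in these values was not tested.

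**Figure D2:**
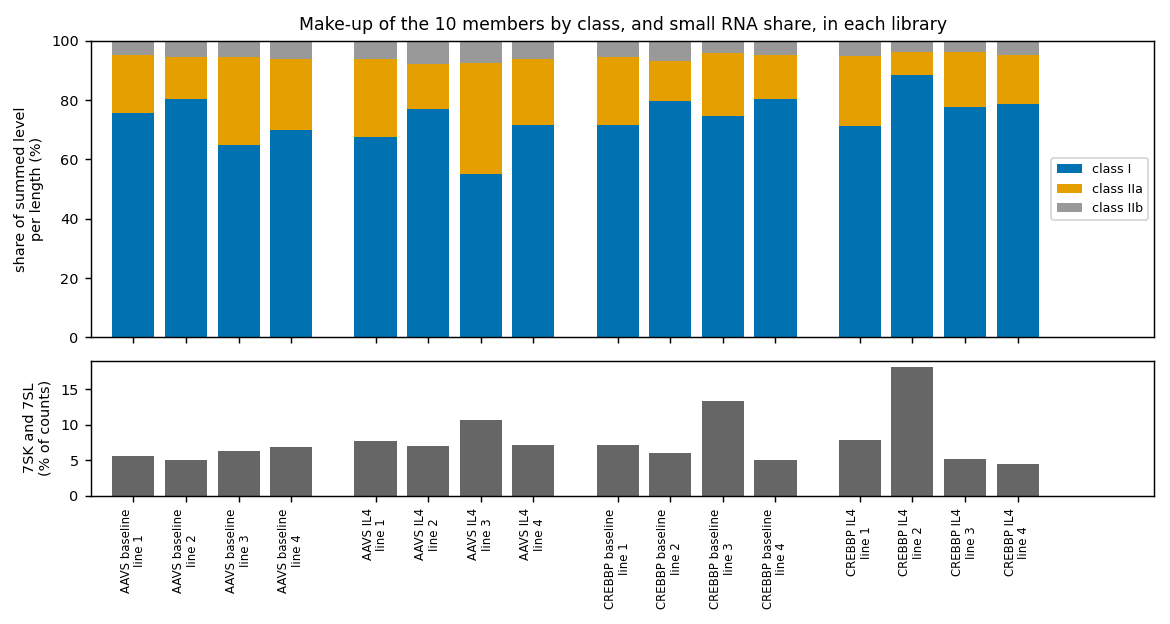
Upper bars give the share of the summed CPM per kb of the 10 members that came from class I, class IIa and class IIb in each library, and lower bars give the share of counts from the small RNAs 7SK and 7SL. Class IIa falls to 7.96% in the CREBBP IL4 library of line 2, where the small RNA share reaches 18.1%, and rises to 37.5% in the AAVS IL4 library of line 3.

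Among the class I genes, HDAC1 (chr1:32292083-32333635, plus strand of GRCh38) encodes the main catalytic subunit of several corepressor complexes. HDAC1 was at 430.0, 385.6, 373.7 and 305.1 CPM in the AAVS baseline libraries of lines 1 to 4, and at 306.9, 316.5, 144.6 and 323.6 CPM with IL4. In the CREBBP pools of the same lines HDAC1 was at 407.4, 364.3, 323.7 and 361.2 CPM at baseline and at 354.1, 286.9, 389.3 and 320.3 CPM with IL4. The groups overlapped, and the AAVS IL4 library of line 3 lay far below the remaining 15 libraries. HDAC2 (chr6:113933028-114011308, minus strand), the close paralog of HDAC1, was at 64.4, 76.8, 50.4 and 66.9 CPM in AAVS baseline and at 54.99, 65.7, 38.8 and 65.9 CPM in AAVS IL4. The CREBBP baseline libraries held HDAC2 at 66.8, 72.5, 65.1 and 112.3 CPM, and the CREBBP IL4 libraries at 81.2, 69.9, 103.6 and 119.0 CPM. With IL4, every CREBBP library was above every AAVS library in CPM, whereas the baseline groups overlapped. How many of all genes separate by group or line in this way was not counted, for this or any other member.

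HDAC3 (chr5:141620876-141636849, minus strand), the catalytic subunit of the NCoR complex, had the narrowest range of the members, with a highest level 1.82 times the lowest. HDAC3 was at 44.9, 63.5, 45.8 and 41.8 CPM in AAVS baseline and at 44.8, 76.0, 47.3 and 43.97 CPM in AAVS IL4. It was at 60.9, 73.0, 52.7 and 52.1 CPM in CREBBP baseline and at 54.9, 50.4, 62.8 and 56.0 CPM in CREBBP IL4. At baseline each line had more HDAC3 in its CREBBP pool, although the groups overlapped through line 2. HDAC8 (chrX:72329516-72573101, minus strand), a class I enzyme that deacetylates the cohesin subunit SMC3, split by line. Lines 1 and 3 had 11.3 to 26.9 CPM of HDAC8, while lines 2 and 4 had 27.6 to 36.7 CPM, so that the pairs of lines did not overlap. Over lines 1 to 4 HDAC8 was at 17.1, 36.7, 18.3 and 31.6 CPM in AAVS baseline and at 19.1, 27.6, 26.9 and 27.9 CPM in AAVS IL4. In the CREBBP pools it was at 12.7, 30.6, 12.5 and 34.0 CPM at baseline and at 11.3, 28.8, 14.8 and 31.1 CPM with IL4, with the same order of the pairs of lines.

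The class IIa genes had the widest ranges over all 16 libraries, in part through the CREBBP IL4 library of line 2. HDAC4 (chr2:239048168-239401654, minus strand), a signal-responsive corepressor of MEF2 factors, differed 13.0-fold between its highest and lowest library, and 5.65-fold without that library. HDAC4 was at 20.6, 16.3, 20.6 and 13.8 CPM in the AAVS baseline libraries of lines 1 to 4 and at 25.2, 15.4, 39.5 and 15.8 CPM in AAVS IL4. The CREBBP pools had HDAC4 at 14.3, 9.32, 8.40 and 6.99 CPM at baseline and at 12.7, 3.03, 10.7 and 7.50 CPM with IL4. HDAC4 was thus lower in the CREBBP pool of each line under both conditions, and with IL4 the groups did not overlap. These CPM rest on 122 to 1154 counts per library.

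HDAC9 (chr7:18086949-19002416, plus strand), whose gene also gives short MEF2-binding isoforms without a catalytic domain, had the widest range at 13.1-fold with or without that library. HDAC9 was at 33.6, 34.5, 21.3 and 111.0 CPM in AAVS baseline and at 62.6, 61.1, 90.8 and 108.7 CPM in AAVS IL4. HDAC9 stood at 14.8, 41.9, 8.48 and 53.9 CPM in CREBBP baseline and at 14.3, 48.2, 16.4 and 52.8 CPM in CREBBP IL4. With IL4 every AAVS library was above every CREBBP library for HDAC9 in CPM, and at baseline line 2 had the higher level in its CREBBP pool. TMM, the kind of scaling used in the tests, was also applied over all 16 libraries. After it, HDAC9 of line 2 was higher in the CREBBP pool with IL4 too, so the separation did not hold there.

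HDAC5 (chr17:44076746-44123702, minus strand), a class IIa enzyme controlled by CaMK and PKD kinases, was at 77.1, 62.5, 119.8 and 59.5 CPM in AAVS baseline and at 85.3, 40.7, 66.8 and 53.2 CPM in AAVS IL4. HDAC5 stood at 103.7, 48.5, 72.3 and 47.1 CPM in CREBBP baseline and at 95.7, 15.1, 77.8 and 52.4 CPM in CREBBP IL4. HDAC5 was higher in lines 1 and 3 than in lines 2 and 4 in every library, and the lowest value was in the CREBBP IL4 library of line 2. HDAC7 (chr12:47782722-47833132, minus strand), the class IIa enzyme best known from lymphocytes, was at 187.2, 95.5, 306.7 and 162.0 CPM in AAVS baseline and at 187.2, 100.1, 174.9 and 154.1 CPM in AAVS IL4. In the CREBBP pools it was at 232.5, 96.1, 170.0 and 107.0 CPM at baseline and at 208.9, 30.2, 163.7 and 109.3 CPM with IL4. Line 2 had the lowest HDAC7 in each of the 4 conditions, and again its CREBBP IL4 library was the lowest of all 16. The ranges of HDAC7 and HDAC5 were 10.1-fold and 7.96-fold over all libraries, and 3.21-fold and 2.94-fold without that library, below the 3.24-fold of HDAC8.

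In class IIb, HDAC6 (chrX:48801377-48824982, plus strand), the tubulin deacetylase with tandem catalytic domains, was at 18.2, 23.1, 22.7 and 37.0 CPM in AAVS baseline and at 31.0, 29.1, 47.1 and 42.2 CPM in AAVS IL4. In the CREBBP pools it was at 24.6, 26.2, 19.3 and 27.997 CPM at baseline and at 26.2, 12.8, 18.6 and 28.6 CPM with IL4. With IL4 every AAVS library was above every CREBBP library for HDAC6 in CPM, with 29.1 against 28.6 CPM at the closest, while the baseline groups overlapped. The share of all genes with such a separation was not counted. HDAC10 (chr22:50245183-50251405, minus strand), a polyamine deacetylase, was at 31.5, 31.1, 37.4 and 26.9 CPM in AAVS baseline and at 29.99, 41.9, 17.9 and 25.7 CPM in AAVS IL4. It was at 36.7, 38.6, 20.8 and 23.2 CPM in CREBBP baseline and at 29.7, 13.8, 23.3 and 21.4 CPM in CREBBP IL4, and all groups overlapped. HDAC10 is uncertain, since its exons share 2763 bases on the same strand with MAPK12, whose median of 53.0 CPM exceeds the 28.3 CPM of HDAC10. HDAC5 shares 1826 bases of exon with G6PC3 (median 24.2 CPM) on the opposite strand, and HDAC7 shares 30 bases with SLC48A1. The methods name a stranded library kit, while the strand setting of the counting is not given in the sources used here.

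**Figure D3:**
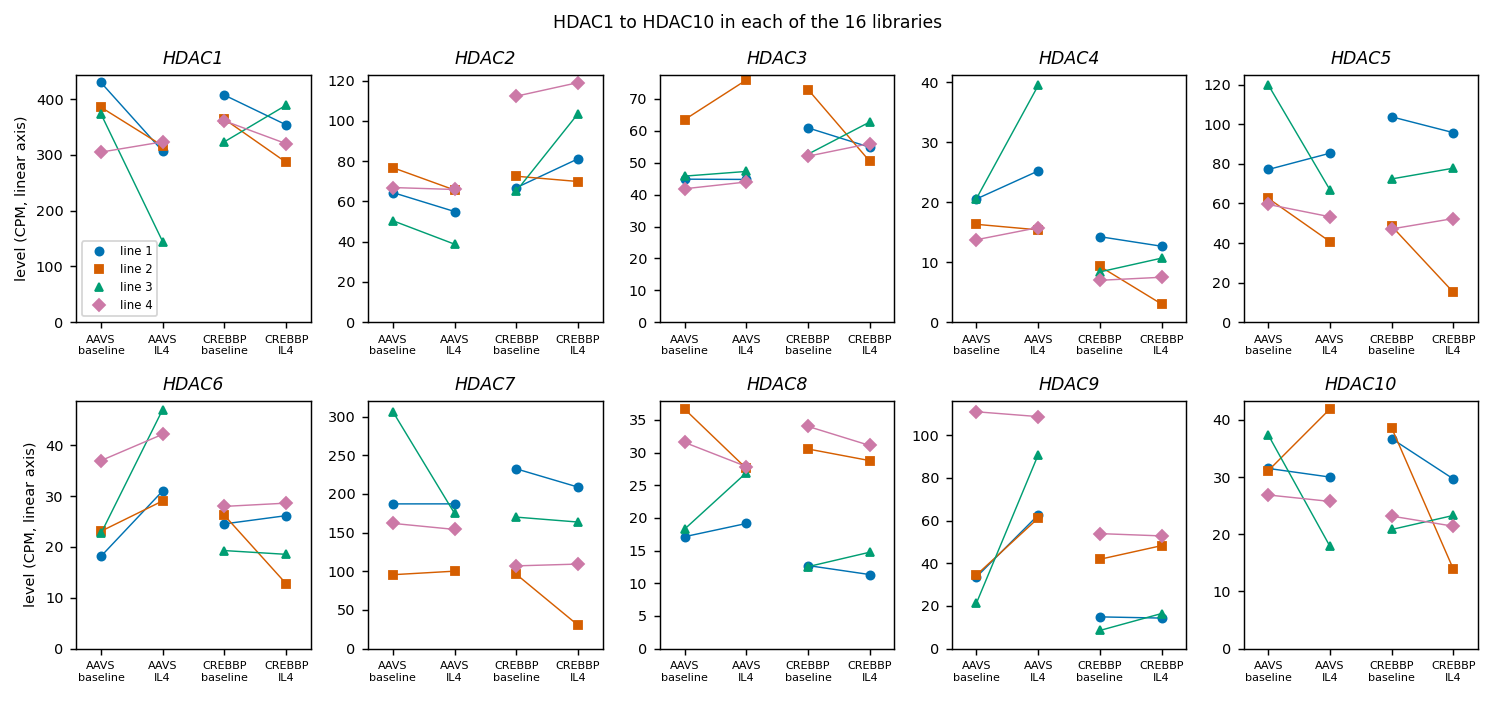
Level of each member in CPM (linear axes from 0) in the 4 groups of libraries, with a thin line joining the baseline and IL4 libraries of each pool. HDAC4 and HDAC9 lie lower and HDAC2 higher in the CREBBP IL4 libraries than in the AAVS IL4 libraries of all 4 lines, while HDAC7 and HDAC8 are ordered mainly by line.

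The stretches upstream of HDAC4, HDAC9 and HDAC2 are shown because these members had the widest differences between pools with IL4. RefSeq promoter windows of GRCh38.p14, from 250 bases before to 50 bases after the start, were found for 9 of the 10 members, HDAC5 being the exception. Only the 200 bases from position -250 to -51 are printed, 5′ to 3′ on the strand of the gene. They lie at chr2:239274832-239275031 (minus strand), chr7:18495499-18495698 (plus strand) and chr6:113971199-113971398 (minus strand), and the RefSeq start lies inside the GENCODE span of all these genes, so other starts exist.
HDAC4: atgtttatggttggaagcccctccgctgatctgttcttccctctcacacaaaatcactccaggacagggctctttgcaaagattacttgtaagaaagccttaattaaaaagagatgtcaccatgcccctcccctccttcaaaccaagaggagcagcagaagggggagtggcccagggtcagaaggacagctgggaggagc
HDAC9: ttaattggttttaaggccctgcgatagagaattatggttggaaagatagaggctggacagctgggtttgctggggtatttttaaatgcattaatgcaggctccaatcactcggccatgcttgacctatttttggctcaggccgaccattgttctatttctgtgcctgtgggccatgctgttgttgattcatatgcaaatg
HDAC2: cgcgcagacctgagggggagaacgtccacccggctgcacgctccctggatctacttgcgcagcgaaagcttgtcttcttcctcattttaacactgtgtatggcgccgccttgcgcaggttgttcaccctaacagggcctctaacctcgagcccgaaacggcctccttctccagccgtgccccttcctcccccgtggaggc
The HDAC4 and HDAC9 stretches were poor in CpG, with 1 and 3 CpG, while the HDAC2 stretch held 15. In the whole windows of 300 bases HDAC4 had 3 CpG and HDAC9 had 5, against a median of 14 over 27305 promoters, and the other members except HDAC8, with 9 CpG, had 24 to 40.

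Each window was searched for the STAT-type motif TTCNNNGAA, for its STAT6-type form with 1 base more between TTC and GAA, and for the cyclic AMP response element TGACGTCA, all of which read the same on both strands. TTCNNNGAA was found in HDAC8 alone among the 9 members, and in 7.88% of all promoter windows. The STAT6-type form (6.37% of all windows) and TGACGTCA (1.98%) were in none of the members' windows. The match of HDAC8 starts at position -147 and is shown in capitals with 10 flanking bases on each side (chrX:72572972-72573000, minus strand).
HDAC8: ccaaacccttTTCCTTGAActgtggtcac
HDAC8 had no called IL4 response in either kind of pool, and a match or its absence says only which letters stand in this window.

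IL4 was compared with baseline in the AAVS pools to describe the response of the control cells. HDAC9 and HDAC6 had the largest positive values. HDAC6 had a mean of 25.2 ± 8.17 CPM (SD, n = 4) at baseline and of 37.4 ± 8.69 CPM with IL4, and HDAC9 of 50.1 ± 41.1 and 80.8 ± 23.1 CPM, but neither passed the test. The fitted log2 fold change of HDAC6 was 0.52 (95% interval 0.079 to 0.97, adjusted p = 0.252), with the same sign in 4 of 4 lines. That of HDAC9 was 0.88 (0.14 to 1.62, adjusted p = 0.246), with line 4 at -0.03. HDAC1 had the most negative value at -0.57 (-1.31 to 0.17, adjusted p = 0.396), and without line 3 it was -0.30. With edgeR's quasi-likelihood test 0 of the 10 members had an adjusted p under 0.05, against 2.40% of 20310 genes. At an unadjusted p under 0.05 there were 2 members, HDAC6 and HDAC9, against 16% of genes, and 0 members were called by DESeq2 (10.2% of genes) and by limma-voom (4.23%). The median log2 fold change of the members was -0.14, beside 0.014 over all genes.

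The same IL4 treatment was examined in the CREBBP pools. HDAC7 had the most negative log2 fold change, -0.41 (95% interval -0.89 to 0.070), and HDAC9 the most positive, 0.31 (-0.11 to 0.74). HDAC2 was at 0.29 and HDAC10 at -0.38, each with the same sign in 4 of 4 lines after TMM scaling, although in CPM each had the sign in 3 of 4. Without line 2, whose CREBBP IL4 library stood apart, HDAC7 was at -0.16 and HDAC10 at -0.18. The edgeR test called 0 of the 10 members, with a lowest adjusted p of 0.924, against 0.00% of 18282 genes. At an unadjusted p under 0.05 there were 0 members and 502 genes (2.75%), while DESeq2 called 1 gene (0.00547%) and limma-voom 0, none of them a member. The median of the members was -0.13, beside -0.038 over all genes.

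CREBBP and AAVS pools were compared at baseline to describe the differences between the pools without IL4. HDAC4 had the most negative value, HDAC9 the next, and HDAC3 and HDAC2 the most positive ones. HDAC4 was at 9.74 ± 3.16 CPM (SD, n = 4) in the CREBBP pools and at 17.8 ± 3.37 CPM in the AAVS pools, a fitted log2 fold change of -0.80 (95% interval -1.28 to -0.32) with the same sign in 4 of 4 lines. Its adjusted p was 0.224 with edgeR and 0.0179 with DESeq2, the only member that DESeq2 called. HDAC9 was at 29.8 ± 21.6 against 50.1 ± 41.1 CPM, a log2 fold change of -0.73 (-1.31 to -0.14, adjusted p = 0.331), with line 2 at 0.37. Without line 2 the value of HDAC9 was -1.05, with an adjusted p of 0.0240, in a fit that called 2.68% of genes.

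HDAC3 was at 59.7 ± 9.74 CPM (SD, n = 4) in the CREBBP pools and at 49.0 ± 9.82 CPM in the AAVS pools at baseline. After TMM scaling its 4 lines were close together, at 0.36, 0.30, 0.34 and 0.39 on the log2 scale. In CPM they were less so, with CREBBP pools at 1.36, 1.15, 1.15 and 1.24 times the AAVS pools of the same lines. The fitted value was 0.39 (95% interval 0.011 to 0.77, adjusted p = 0.382). HDAC2 was at 0.37 (-0.077 to 0.82, adjusted p = 0.474), and the remaining 6 members lay between -0.18 and 0.097. With edgeR's quasi-likelihood test 0 of the 10 members were called, against 0.00% of 18936 genes. At an unadjusted p under 0.05 there were 3 members, HDAC3, HDAC4 and HDAC9, against 12.8% of genes. DESeq2 called 1 member and 2.71% of genes, and limma-voom called 0 members and 0.206% of genes. DESeq2 gave an adjusted p to 14897 of the 18936 genes. The median of the members was -0.090, beside -0.025 over all genes.

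With IL4, HDAC4 and HDAC9 again had the most negative differences between CREBBP and AAVS pools, and HDAC2 and HDAC1 the most positive ones. HDAC4 was at 8.48 ± 4.21 CPM (SD, n = 4) in CREBBP IL4 and at 23.98 ± 11.3 CPM in AAVS IL4, and HDAC2 at 93.4 ± 22.1 against 56.3 ± 12.8 CPM. The log2 fold change of HDAC4 was -1.29 (95% interval -1.97 to -0.62, adjusted p = 0.0527), with lines 1 to 4 at -0.83, -1.78, -1.60 and -0.96. That of HDAC2 was 1.01 (0.43 to 1.58, adjusted p = 0.0641), with lines 1 to 4 at 0.72, 0.64, 1.70 and 0.96. These line values are after TMM scaling, and in CPM the CREBBP pool of line 2 had only 1.06 times the HDAC2 of its AAVS pool. HDAC9 was at 32.9 ± 20.4 against 80.8 ± 23.1 CPM, with a log2 fold change of -1.24 (-2.27 to -0.20, adjusted p = 0.139). The values of HDAC9 in lines 1, 3 and 4 were -1.96, -2.18 and -0.93, while line 2 was at 0.21 after TMM scaling although its CPM was lower in the CREBBP pool.

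None of these values passed the edgeR test, which called 0 of the 10 members against 4.39% of 19581 genes. At an unadjusted p under 0.05 there were 3 members, HDAC2, HDAC4 and HDAC9, against 25.6% of genes. The same 3 were called by DESeq2, which called 21.2% of genes, and without the filter on low counts, where 9.34% of genes were called. They were called as well in the fit of all 16 libraries (20% of genes), while limma-voom called HDAC2 and HDAC4 (10.4% of genes). Shares of the genes as a whole were thus much higher under those settings too. Leaving out line 3, which holds the AAVS IL4 library with the smallest total, gave -1.17 for HDAC4 (adjusted p = 0.193), 0.80 for HDAC2 (adjusted p = 0.183) and -0.88 for HDAC9 (adjusted p = 0.410). Leaving out line 2, which holds the CREBBP IL4 library with the highest small RNA share, gave -1.11 (adjusted p = 0.0527), 1.15 (adjusted p = 0.0373) and -1.67 (adjusted p = 0.0175), in a fit that called 12.4% of genes. Without the line as a block, the adjusted p was 0.183 for HDAC4, 0.0795 for HDAC2 and 0.344 for HDAC9. The markers of T and NK cells were higher in the AAVS IL4 libraries, as described, and in a bulk library fewer cells of a type and less RNA per cell cannot be told apart.

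The other members differed less between the pools with IL4. HDAC1 was at 0.64 (95% interval -0.10 to 1.38, adjusted p = 0.248), and without line 3 at 0.31. HDAC6 was at -0.56 (-1.16 to 0.049, adjusted p = 0.225), with the same sign in 4 of 4 lines, and HDAC3 at 0.39. HDAC5, HDAC7, HDAC8 and HDAC10 lay between -0.26 and 0.015. The median of all 10 members was -0.085, beside -0.053 over all genes.

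The difference between the IL4 responses was tested itself, by fitting the 16 libraries together with each pool as its own term. HDAC2 had the most positive difference, 0.67 (95% interval 0.15 to 1.20, adjusted p = 0.265), and HDAC6 the most negative, -0.61 (-1.14 to -0.082, adjusted p = 0.305), each with the same sign in 4 of 4 lines. HDAC1 was at 0.61 (adjusted p = 0.517), HDAC9 at -0.46 (adjusted p = 0.631) and HDAC4 at -0.45 (adjusted p = 0.590). The edgeR test called 0 of the 10 members, against 0.638% of 21932 genes. At an unadjusted p under 0.05 there were 2 members, HDAC2 and HDAC6, against 13.3% of genes, and 0 members were called by DESeq2 (5.02% of genes) and by limma-voom (2.68%). DESeq2 gave an adjusted p to 20231 of the 21932 genes. The median of the members was 0.0023, beside 0.051 over all genes. Each comparison shares libraries with others, so their values are not independent of each other.

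**Figure D4:**
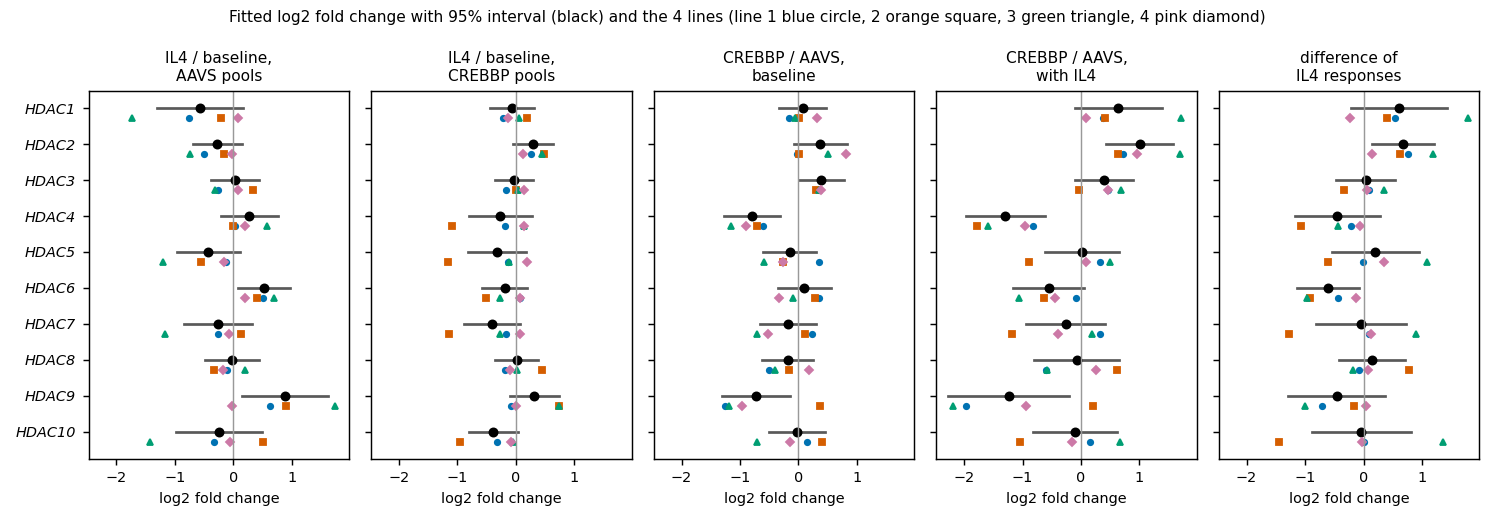
Fitted log2 fold change of each member (black point) with its 95% interval in the 5 comparisons of treatment and target, and below it the log2 difference of each of the 4 lines as coloured symbols. HDAC4 lies below 0 and HDAC2 above 0 in all 4 lines for CREBBP against AAVS with IL4, and most other intervals include 0.

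The comparison of the 4 lines asks which members have a level of their own in a line. An edgeR F test with all 16 libraries and the condition as covariate called 5 of the 10 members, which were HDAC7 (F = 15.3, adjusted p = 0.00105), HDAC5 (F = 13.2, adjusted p = 0.00184), HDAC4 (F = 10.4, adjusted p = 0.00418), HDAC8 (F = 8.99, adjusted p = 0.00674) and HDAC9 (F = 6.46, adjusted p = 0.0188). The same test called 40.0% of 21932 genes, so the share of members is close to that of all genes. Without line 1, HDAC8 (adjusted p = 0.0788) and HDAC9 (adjusted p = 0.0644) were no longer called, and without line 4, HDAC4 (adjusted p = 0.0605) and HDAC9 (adjusted p = 0.183) were not. HDAC3 had an adjusted p of 0.0509, and HDAC10, HDAC6, HDAC1 and HDAC2 had 0.231 to 0.693. The 4 libraries of a line come from a pair of pools of that line and are not independent isolates, so these p-values measure the spread between these libraries.

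Line 2 was the lowest in HDAC7. Against the mean of the other 3 lines its log2 difference was -1.24 (SE 0.23, adjusted p = 0.00075) for HDAC7, -0.95 (SE 0.22, adjusted p = 0.00369) for HDAC5 and -0.62 (SE 0.20, adjusted p = 0.0310) for HDAC4. Line 2 was higher in HDAC8, at 0.64 (adjusted p = 0.0120), and in HDAC3, at 0.38 (adjusted p = 0.0404). These 5 of 10 members stood beside 32.5% of genes called for this line. Without its CREBBP IL4 library, an alternative chosen after seeing the data that called 26.3% of genes, HDAC7 was at -0.97 (adjusted p = 0.00613), HDAC5 at -0.64 (adjusted p = 0.0255), HDAC8 at 0.51 (adjusted p = 0.0469) and HDAC3 at 0.50 (adjusted p = 0.0208), while HDAC4 was at -0.36 (adjusted p = 0.203).

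Line 1 had 3 of 10 members called, beside 6.57% of genes. HDAC5 was at 0.79 (SE 0.20, adjusted p = 0.0296) and HDAC7 at 0.79 (SE 0.20, adjusted p = 0.0336), and HDAC8 at -0.73 (SE 0.19, adjusted p = 0.0361). Line 3 had 1 of 10, HDAC7 at 0.81 (SE 0.20, adjusted p = 0.0479), beside 2.70% of genes. Line 4 had 3 of 10, beside 29.8% of genes, with HDAC9 at 1.08 (SE 0.30, adjusted p = 0.0142), HDAC3 at -0.43 (SE 0.14, adjusted p = 0.0327) and HDAC4 at -0.65 (SE 0.20, adjusted p = 0.0264). Without the CREBBP IL4 library of line 2, HDAC7 had an adjusted p of 0.0513 in line 1 and 0.0632 in line 3, and the other calls of lines 1 and 4 kept their side of the threshold. In line 4 HDAC5 at -0.57 (adjusted p = 0.0226) and HDAC8 at 0.54 (adjusted p = 0.0213) were then called too. Of all genes, 5.15%, 2.55% and 29.3% were called in lines 1, 3 and 4 by that fit. Without the AAVS IL4 group, in 12 libraries, HDAC9 of line 4 was at 1.28 (adjusted p = 0.00412), HDAC3 of line 2 at 0.25 (adjusted p = 0.219) and HDAC4 of line 2 at -0.58 (adjusted p = 0.0663), beside 31.7% of genes in line 4 and 32.6% in line 2. HDAC4 of line 1 at 0.77 (adjusted p = 0.0337), HDAC8 of line 4 at 0.51 (adjusted p = 0.0469) and, in line 3, HDAC5 at 0.82 (adjusted p = 0.0488) and HDAC9 at -1.25 (adjusted p = 0.0336) were called in that fit as well, beside 11.3% of genes in line 1 and 5.99% in line 3.

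**Figure D5:**
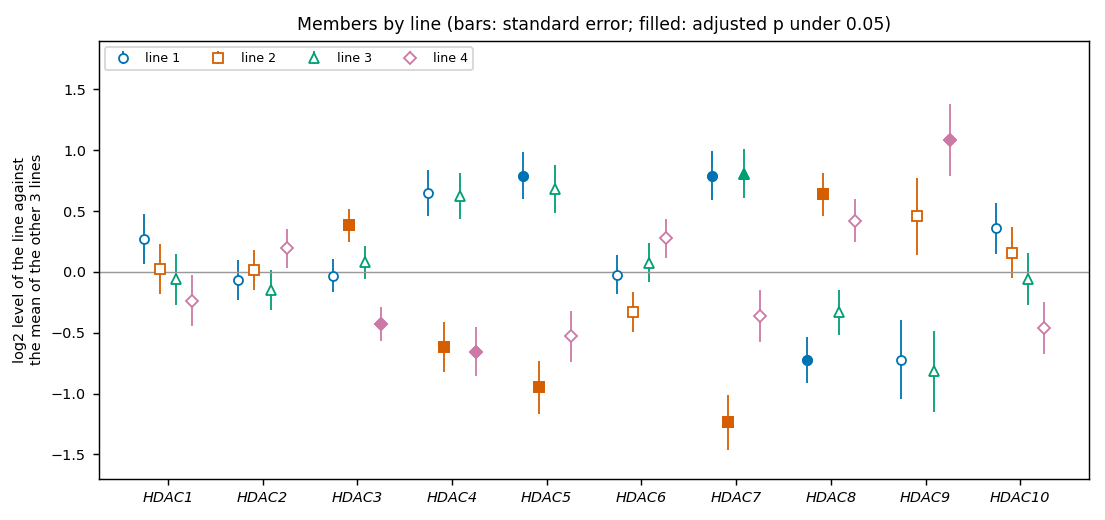
Log2 level of each member in a line against the mean of the other 3 lines, with the standard error as bars and filled symbols for an adjusted p under 0.05 (edgeR, 16 libraries). HDAC7 spans the widest range, from -1.24 in line 2 to 0.81 in line 3, and HDAC9 is highest in line 4 at 1.08.

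The partners of the enzymes were read from lists of corepressor subunits, 43 genes in 5 complexes (NCoR, SIN3, NuRD, CoREST and MiDAC), all of which were tested. The edgeR test called 0 of 43 for IL4 in the AAVS pools, for IL4 in the CREBBP pools, for CREBBP against AAVS at baseline and with IL4, and for the difference of the responses. At an unadjusted p under 0.05 there were 4, 2, 5, 9 and 5 of the 43 in these comparisons, beside 16%, 2.75%, 12.8%, 25.6% and 13.3% of all genes. Their median log2 fold changes were -0.25, -0.098, 0.15, 0.40 and 0.18, beside 0.014, -0.038, -0.025, -0.053 and 0.051 over all genes. Their lowest adjusted p was 0.0736, for CREBBP against AAVS with IL4. Between the lines 13 of 43 were called, a share below the 40.0% of all genes.

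Among the scaffolds that carry these enzymes, MTA3, a NuRD subunit of germinal center B cells, had the largest values. Its log2 fold change was -0.997 for IL4 in the AAVS pools (adjusted p = 0.216), 0.88 for CREBBP against AAVS with IL4 (adjusted p = 0.126) and 1.18 for the difference of responses (adjusted p = 0.210). MTA1, also of NuRD, was at 0.53 and 0.64 for CREBBP against AAVS at baseline and with IL4, and MTA2 at 0.34 and 0.47. NCOR1, a scaffold of the HDAC3 complex, was at -0.17 and -0.30 in these comparisons. SIN3A was at 0.15 and -0.050, SIN3B at -0.20 and -0.25, and RCOR1 at -0.32 and 0.038. None of them passed the test in the 5 comparisons of treatment and target.

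In line 2, 13 of 43 subunits were called, beside 32.5% of all genes. PHF21A of CoREST was at -1.63, CDK2AP1 of NuRD at -2.37, MTA3 at -1.38, ARID4B of SIN3 at 2.11 and SAP30 of SIN3 at 1.13. Line 4 had 10 of 43, beside 29.8% of all genes, with PHF21A at 1.35, RCOR1 at 0.46, GPS2 of NCoR at -1.15 and BRMS1 of SIN3 at -1.32. Line 1 had 1, CDK2AP1 at 0.999, beside 6.57% of all genes, and line 3 had 0, beside 2.70% of all genes. At an unadjusted p under 0.05 line 3 had 6 of 43, beside 3868 of 21932 genes.

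The MEF2 factors, 14-3-3 proteins and kinases known around the class IIa enzymes gave 17 tested genes of 18 listed. Only SIK1, a kinase that acts on class IIa enzymes, was called by edgeR in a comparison of treatment or target. It was at -2.97 for CREBBP against AAVS with IL4 (adjusted p = 0.0431), beside 4.39% of all genes called. Its IL4 value in the AAVS pools was 2.81 (adjusted p = 0.107). Between the lines MEF2D was lower in line 2, at -0.99 (adjusted p = 0.00270), and so was SIK3, at -1.40, beside 32.5% of all genes called. In line 4, where 29.8% of all genes were called, SIK1 was at -2.06 and MEF2C at -0.75.

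Of 12 MHC class II genes, a known target group of CREBBP and of the HDAC3 complex, edgeR called 3 lower in CREBBP than in AAVS pools with IL4, beside 4.39% of all genes called. These were HLA-DMB at -1.50 (adjusted p = 0.0331), HLA-DRB1 at -1.45 (adjusted p = 0.0480) and CIITA, the class II transactivator, at -1.42 (adjusted p = 0.0346). IL4 in the AAVS pools raised 1 of 12, HLA-DMA, at 0.86 (adjusted p = 0.0475), beside 2.40% of all genes called. The markers of other cell types that were higher in the AAVS IL4 libraries move with both results, and their part was not tested. Of the other deacetylases, HDAC11 and the sirtuins (7 or 8 tested of 8 listed), 0 were called by edgeR in the 5 comparisons of treatment and target, with at most 1 at an unadjusted p under 0.05, while SIRT3 was at 1.39 in line 2 (adjusted p = 0.000113) and at -0.79 in line 4 (adjusted p = 0.0175), and SIRT6 at -0.56 in line 4 (adjusted p = 0.0466).

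The members varied together in part. Correlations of log2 CPM were taken over the 16 libraries, which share lines, pools and depth, and again on deviations from the mean of each line, and are given as descriptions. HDAC5 and HDAC7 were the closest pair over the libraries, with r = 0.955, and were at 0.889 within lines. Their ranges, 7.96-fold and 10.1-fold over all libraries, were 2.94-fold and 3.21-fold without the CREBBP IL4 library of line 2. That library had the lowest CPM of both, and its part in these correlations was not tested. HDAC2 and HDAC4 ran in opposite directions, with -0.810 and -0.857, as did HDAC1 and HDAC6 with -0.779 and -0.834. In CPM the AAVS IL4 library of line 3, with the smallest total, was an extreme for all of these. It had the lowest HDAC1 and HDAC2 and the highest HDAC4 and HDAC6 of the 16 libraries. HDAC7 and HDAC10 were at 0.409 over the libraries and, as the closest pair there, at 0.905 within lines. In CPM HDAC4, HDAC5, HDAC6, HDAC7 and HDAC10 all had their lowest value of the 16 libraries in the CREBBP IL4 library of line 2. No correlation was taken without that library or without the AAVS IL4 library of line 3. The level of HDAC10 is also uncertain through its overlap with MAPK12. HDAC5 and HDAC8 were at -0.837 over the libraries and at -0.426 within lines.

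For each member the genes with the most similar profile over the 16 libraries were taken from 9082 genes with a mean of at least 10 CPM. HDAC5 was closest to MEF2D (r = 0.974), SPIB (0.973) and ZFPM1 (0.971), and HDAC7 to IQSEC1 (0.967), ECE1 (0.966) and MEF2D (0.965). HDAC5 and HDAC7 had their lowest CPM in the CREBBP IL4 library of line 2, and no profile was compared without that library. HDAC4 was closest to PPARD (0.940), ITPKB (0.926) and ZNF641 (0.912), and HDAC9 to RICTOR (0.959), ERP44 (0.956) and DMTF1 (0.953). Among the class I genes, HDAC1 was closest to FAM220A (0.941), HDAC2 to RBBP8 (0.971), HDAC3 to NUP93 (0.954) and HDAC8 to ETFDH (0.969). In class IIb, HDAC10 was closest to WASH6P (0.940), and HDAC6, with the lowest likeness of all members, to LINC00926 (0.867).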

How the data were processed

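Total RNA was depleted of ribosomal RNA and sequenced by the authors with paired-end reads. Per the labels and the study's methods, reads were trimmed with Cutadapt 2.3, checked with FastQC 0.11.8 and MultiQC 1.7, mapped to GRCh38 with STAR 2.7.8a and assigned to genes with RSEM 1.3.3. The annotation release and the strand setting are not given in the sources used here, and the methods average technical replicates for primary cells and say that the lines followed the same methods, without saying whether the lines had any. The authors deposited an estimated count per gene, as whole numbers and not scaled.

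Computed here: CPM (count over library total), CPM per kb of merged exons (GENCODE 44), and tests with R 4.3.3 and edgeR 4.0.16. Genes passing filterByExpr were scaled by TMM and tested by quasi-likelihood, blocking on the line, with Benjamini-Hochberg adjustment over all genes tested. A gene was called at an adjusted p under 0.05. The design formula for the lines is not given in the methods. Alternatives were DESeq2 1.42.0, limma-voom (limma 3.58.1), size factors of DESeq2 inside edgeR, a filter of at least 10 counts in each library or none, no block, all 16 libraries in 1 fit, each line left out, 12 libraries without AAVS IL4, and, chosen after seeing the data, 15 libraries without the CREBBP IL4 library of line 2 and the contrasts of single lines in both subsets. The edgeR tests were also run on simulated data, and the outcome is not reported here. Log2 CPM for lines and correlations used a prior count of 2 and TMM scaling over all 16 libraries. Each test took its TMM factors from its own libraries after the filter. Figures were drawn with matplotlib 3.10.9.

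Libraries were paired by their cell line. As a check, deviations from the group means had median correlations of 0.583, 0.720, 0.301 and 0.681 within lines 1 to 4 (lowest -0.145, in line 3). Between libraries of the same group, which come from different lines, chi-square divided by its degrees of freedom was 72.0 or more. No library was thus a copy of another in its group. Libraries of the same line were not compared in this way. Nothing says that a pool was cultured more than once, so p-values measure the spread between lines.

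The members and lists were chosen with earlier results of these data known. All 10 members were named, along with CREBBP, HDAC11 and 7 scaffolds (NCOR1, SIN3A, SIN3B, MTA1, MTA2, MTA3 and RCOR1), up to 3 called genes per direction from each other list, and the 3 genes most like each member, of which the first is given where space is short. No protein sequences were used here, and 1 further scaffold is not reported here.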

Additional observations from a re-analysis of the deposited data

Results flagged for a closer look

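The 4 libraries of each group were checked, for each of the 10 members, for a highest or lowest value that stood apart by Dixon's test at the 95% level. Of 40 groups checked, 5 had such a value, and chance gives about 1 in 20. HDAC1 was at 144.6 CPM in the AAVS IL4 library of line 3, while the other lines were at 306.9 to 323.6 CPM. HDAC2 was at 112.3 CPM in the CREBBP baseline library of line 4, against 65.1 to 72.5 CPM. HDAC3 was at 76.0 CPM in the AAVS IL4 library of line 2, against 43.97 to 47.3 CPM. HDAC8 was at 19.1 CPM in the AAVS IL4 library of line 1, against 26.9 to 27.9 CPM. HDAC9 was at 111.0 CPM in the AAVS baseline library of line 4, against 21.3 to 34.5 CPM. In 4 of these 5 the library was of the AAVS pools.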

How the results depend on the processing

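Of 730 values of the members under alternative settings, 645 kept their direction and side of the threshold, 29 passed it newly, 9 no longer passed it and 47 changed sign, none of the last with an unadjusted p under 0.05 in the reported fit. HDAC5 and HDAC7 differed between lines in 12 of 12 settings. For CREBBP against AAVS with IL4, HDAC4, HDAC2 and HDAC9 were called in 5, 5 and 4 of 12 settings, and for IL4 in the AAVS pools no member was called in any setting. The cause of each change was not tested.

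With no filter on low counts, the genes called were 1851 for IL4 in the AAVS pools, 40 in the CREBBP pools, 586 for CREBBP against AAVS at baseline, 3466 with IL4 (3 members) and 1191 for the difference in response. With at least 10 counts in every library they were 25 for IL4 in the AAVS pools and 69 for the difference. For CREBBP against AAVS with IL4, 682 of 13591 genes tested were called there, 1 of them a member. DESeq2 called 2062, 1, 514 (1 member), 4154 (3 members) and 1100, and limma-voom called 860 for IL4 in the AAVS pools, 39 at baseline, 2032 with IL4 (2 members) and 587 for the difference. The fit of all 16 libraries called 1270 for IL4 in the AAVS pools and 4393 with IL4 (3 members). Without the replicate block, which pairs libraries by line, 540 were called with IL4 and 2 for the difference.

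Changed signs were small. For IL4 in the AAVS pools, HDAC3 was at -0.0090 with the size factors of DESeq2, -0.094 with no filter, -0.0086 in DESeq2 and -0.031 in the fit of 16. With IL4, HDAC5 was at -0.0073, -0.082 and -0.0070 with those size factors, at least 10 counts and DESeq2, and HDAC8 at 0.095 without the block. For the difference, HDAC3 was at -0.032, -0.13 and -0.032 in the same order, HDAC8 at -0.026 with at least 10 counts and HDAC7 at 0.21 without the block. In 12 libraries, line 1 had HDAC3 at 0.037 and HDAC6 at 0.063, line 2 HDAC1 at -0.068, HDAC2 at -0.093 and HDAC10 at -0.081, and line 3 HDAC1 at 0.22, HDAC2 at 0.010, HDAC6 at -0.070 and HDAC10 at 0.17. In 15 libraries, line 3 had HDAC3 at -0.0026 and HDAC6 at -0.0067.

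Leaving out each line in turn gave 64 to 1035 genes for IL4 in the AAVS pools, 0 to 515 (0 to 1 members) at baseline, 25 to 2547 (0 to 2 members) with IL4, 16 to 264 for the difference and 4005 to 9898 (3 to 6 members) between lines. Ranges that crossed 0 were, for IL4 in the AAVS pools, HDAC3 -0.081 to 0.040, HDAC8 -0.21 to 0.060 and HDAC10 -0.51 to 0.030, and in the CREBBP pools HDAC3 -0.060 to 0.014 and HDAC8 -0.12 to 0.079. At baseline they were HDAC1 -0.0065 to 0.11, HDAC6 -0.025 to 0.25 and HDAC10 -0.15 to 0.16, and with IL4 HDAC5 -0.13 to 0.33, HDAC7 -0.45 to 0.063, HDAC8 -0.28 to 0.12 and HDAC10 -0.33 to 0.24. For the difference they were HDAC3 -0.071 to 0.044, HDAC5 -0.068 to 0.34, HDAC7 -0.33 to 0.25, HDAC8 -0.19 to 0.28 and HDAC10 -0.47 to 0.32.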
